A study of Mus musculus with 65 samples.

Results

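The genes that carry or brake the signal of the transforming growth factor beta family inside the cell were followed through mouse mammary glands and mammary tumours: the signal mediators Smad1, Smad2, Smad3, Smad5 and Smad4, the inhibitory Smad6 and Smad7, the nuclear repressors Ski and Skil, and the ubiquitin ligase Smurf2. These 10 genes were chosen by name, as the array's probe sets annotated to each of these genes alone, and make up 10 of the 18194 genes that had such a probe set on the expression array. A probe set is a group of short probes read as 1 value, and 24 probe sets named the 10 genes. Each gene was read from its probe set with the highest mean level in the tissue.

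A ligand of the family brings receptors together at the cell surface, and the activated receptor phosphorylates a receptor-regulated Smad. TGF-beta and activin receptors act mainly on Smad2 and Smad3, and bone morphogenetic protein (BMP) receptors on Smad1 and Smad5. The phosphorylated Smads join Smad4 and enter the nucleus, where they act on target genes. Smad6 and Smad7 are themselves targets of the pathway and block it at the receptors, Ski and Skil hold Smad complexes in a repressed state, and Smurf2 marks receptors and Smads for degradation. Most of this control is by phosphorylation, movement between compartments and protein turnover, which an array of messenger RNA does not measure. In the mammary gland TGF-beta restrains the growth of the epithelium.

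The glands came from BALB/c littermates, Tgfb1 wild-type or heterozygote, aged 10 weeks, all injected with estrogen and progesterone to align their cycles before irradiation. Mice received 10 cGy or a sham exposure, and the posterior part of the inguinal gland, freed of its lymph node, was taken 1 or 4 weeks later, with sham glands at 1 week. The wild-type arrays numbered 3 after sham, 3 at 1 week and 3 at 4 weeks, and the heterozygous ones 3, 2 and 3. The tumours were p53-null and grew from mammary fragments placed in inguinal fat pads that had been cleared of their own epithelium at 3 weeks of age, in wild-type or Tgfb1 heterozygous hosts that were irradiated or not 3 days before the transplant. There were 9 tumours of wild-type sham hosts, 23 of wild-type irradiated hosts, 6 of heterozygous sham hosts and 10 of heterozygous irradiated hosts. The fragments themselves were not irradiated, the hosts' dose is not stated in the labels used here, and a tumour holds host cells beside those that grew from the graft. Whether the gland repeats came from separate animals is not stated, so p-values measure the spread between these arrays.

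All levels below are log2 values, in which a difference of 1 is a fold of 2, and glands and tumours were kept apart because their scales differ. All 10 genes passed the filter on dim genes in both tissues, among 12945 genes tested in glands and 12786 in tumours. A gene is called changed where limma's p, adjusted over all genes tested in that tissue by the Benjamini-Hochberg method, is under 0.05. Arrays of a group correlated at 0.976 to 0.994 in glands and 0.899 to 0.991 in tumours. Luminal epithelium markers, 8 of 8, were above the filter in both tissues, with a mean of 10.25 to 11.02 in glands and 7.22 to 12.80 in tumours. In 7 of 17 glands the mean of 8 skeletal muscle markers stood high, over a full range of 4.09 to 11.92, and 2 glands stood high in B cell and lymph node markers. Tumour 5 of the wild-type sham hosts stood apart, with a mean of 8 endothelial markers of 12.2 against a median of 7.51 over the 48 tumours, and tumour 12 of the heterozygous irradiated hosts had 10.65. Tumour 1 of the wild-type irradiated hosts carries conflicting host labels and was placed by its title.

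Promoter sequence is shown for 3 genes on which the results below turn or whose start carries a Smad motif. The windows come from RefSeq promoters of build GRCm38.p6, which run from 250 bases before to 50 bases after each start. Of the 10 genes 6 were searched. Smad2, Smad4, Smad7 and Skil were not, so whether they hold these motifs is not known here. Both strands were searched for GTCTAGAC, the palindrome bound by Smad3 and Smad4, for its shorter form CAGAC or GTCTG, and for GGCGCC, a GC-rich element bound by Smad1 and Smad5. The palindrome does not itself contain the shorter form. The Smad6 stretch, chr9:64022035-64022159 on the minus strand, covers 100 bases before to 25 after the start, and the capitals mark the palindrome. The Smad1 stretch, chr8:79399429-79399578 on the minus strand, is the 150 bases before the start and holds none of the motifs. The Smurf2 stretch, chr11:106920816-106920965 on the minus strand, begins 250 bases before the start, and the capitals mark GGCGCC and the short form.
Smad6: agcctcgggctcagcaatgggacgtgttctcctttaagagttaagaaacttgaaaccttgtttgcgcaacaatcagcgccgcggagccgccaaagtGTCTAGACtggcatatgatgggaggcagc
Smad1: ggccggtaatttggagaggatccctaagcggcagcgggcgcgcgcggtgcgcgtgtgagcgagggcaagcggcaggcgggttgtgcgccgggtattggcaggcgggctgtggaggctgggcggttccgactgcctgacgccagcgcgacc
Smurf2: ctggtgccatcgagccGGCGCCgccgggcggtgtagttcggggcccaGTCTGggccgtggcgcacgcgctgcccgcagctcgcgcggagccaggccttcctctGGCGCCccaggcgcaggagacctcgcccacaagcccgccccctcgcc

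The palindrome lies across the start of Smad6, from position -4 to 4, and was found in 70 of 32851 mouse promoters of this length, or 0.213%. GGCGCC was found in 11.9% of promoters and the short form in 49.6%. The whole Smurf2 window held 2 of each, the Ski window held 1 GGCGCC, and the Smad3 window held no match. Of the 3 Smad5 windows, 2 held 1 GGCGCC and the other held 1 short form. The 2 with GGCGCC overlap, so they may hold the same site. A match describes these letters and not a bound site.

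In the glands the 10 genes varied little. The standard deviation (SD) within groups was lowest for Smurf2, at 0.108, and highest for Skil, at 0.228, and it lay below the median of all tested genes, 0.197, for 8 of the 10. When the 6 group means of each gene were put in order, 3 of the 50 gaps between neighbours were larger than that gene's within-group SD. They were a gap of 0.149 in Smad3 between heterozygous sham and wild-type 1 week glands, 0.18 in Smad5 below the wild-type 4 week glands, and 0.193 in Smurf2 above the heterozygous 1 week glands. All other neighbouring groups lay within the spread.

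**Figure D1:**
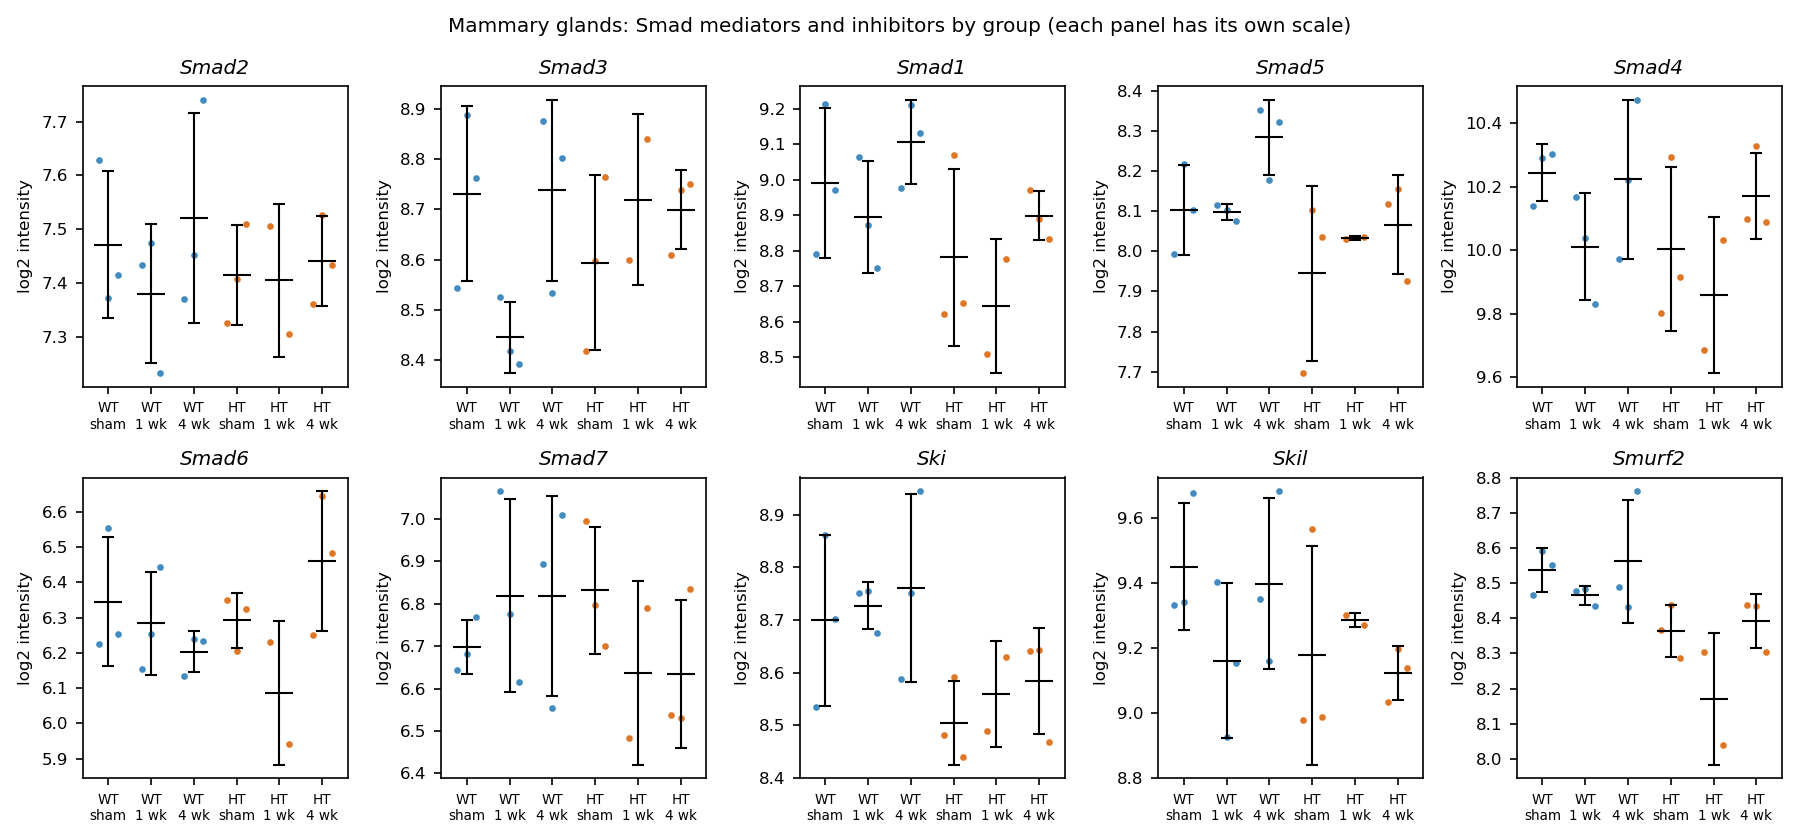
Log2 level (vertical axis, a scale of its own in each panel) of the 10 genes in the 17 glands by group (horizontal axis). Points are arrays, blue wild-type and orange heterozygous, and black marks are the group mean ± SD. Smurf2 and Ski sit lower in the heterozygous groups, with some overlap, and most other panels overlap widely.

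The comparison of heterozygous with wild-type glands asks whether the intracellular part of the pathway differs where the ligand gene is reduced. None of the 10 genes was called in the average over the sham, 1 week and 4 week groups, against a background of 0.0463% of tested genes. Tgfb1 was lower by a log2 difference of -0.84 ± 0.13 (SE; adjusted p = 0.0351, limma), with 6 of 8 heterozygous glands below every wild-type gland. Its estimate stayed between -0.77 and -0.91 when 1 gland was left out, but the adjusted p then ran from 0.0140 to 0.150 and passed in 9 of 17 fits. The call ended without any of the 3 wild-type sham glands, wild-type 1 week gland 2, heterozygous sham gland 1, either heterozygous 1 week gland, or heterozygous 4 week gland 3. It also ended without the muscle-rich glands (adjusted p = 0.605), without the lymph-node-rich glands (0.0959), with endothelial and fibroblast covariates (0.0973) and with the mean of probe sets (0.0625). The Tgfb1 probe set used was dim in glands, with a mean of 4.69 (3.81 to 5.45) against a filter at 4.15. The heterozygous 1 week glands, at 3.85 and 3.81, and heterozygous sham gland 2, at 4.09, lay under that level. The other Tgfb1 probe set, with a mean of 3.89, did not pass the filter. No label used here says whether the used probe set lies inside the altered part of the gene. The estimate was below 0 for 8 of the 10 genes, where 55.3% of all genes were below 0, and their median was -0.145 against -0.019 over all genes. None of the 10 had its 8 heterozygous glands all on one side of the 9 wild-type glands, a separation that 0.0927% of tested genes showed.

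Smurf2 had the smallest p. Its levels in the wild-type glands were 8.47, 8.59 and 8.55 after sham, 8.48, 8.48 and 8.43 at 1 week, and 8.49, 8.43 and 8.76 at 4 weeks. The heterozygous glands gave 8.37, 8.44 and 8.29 after sham, 8.30 and 8.04 at 1 week, and 8.44, 8.43 and 8.30 at 4 weeks. Thus 5 of the 8 heterozygous glands lay below every wild-type gland, and all 8 lay below the wild-type median of 8.48. The log2 difference was -0.21 ± 0.06 (SE; 95% interval -0.35 to -0.08), with an unadjusted p of 0.00393 and an adjusted p of 0.270 in limma, so it did not pass. The gene's other probe sets did not share the difference. They gave 0.02 ± 0.07 and -0.04 ± 0.08 (SE), and correlated with the used probe set at -0.292 and 0.292 over the 17 glands, and the mean over probe sets gave -0.08.

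Ski, whose protein recruits repressor complexes to Smads, followed the same order. Its wild-type glands read 8.54, 8.86 and 8.70 after sham, 8.75, 8.75 and 8.68 at 1 week, and 8.59, 8.75 and 8.94 at 4 weeks. Its heterozygous glands read 8.48, 8.59 and 8.44 after sham, 8.49 and 8.63 at 1 week, and 8.64, 8.64 and 8.47 at 4 weeks. All 8 heterozygous glands lay below the wild-type median of 8.75 and 4 lay below every wild-type gland. The log2 difference was -0.18 ± 0.07 (SE; adjusted p = 0.336, limma), and -0.09 ± 0.07 from the second probe set. Ski's related repressor Skil had a difference of -0.14 ± 0.11 (adjusted p = 0.568), with no heterozygous gland below the wild-type range.

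Among the mediators of BMP signals, Smad1 ranged from 8.75 to 9.21 in wild-type and from 8.51 to 9.07 in heterozygous glands. Its log2 difference was -0.22 ± 0.09 (SE; adjusted p = 0.345, limma), and 7 of 8 heterozygous glands lay below the wild-type median. The other Smad1 probe sets gave -0.28 and -0.20, so the 3 of this gene lay close together. Smad5 had -0.15 ± 0.07 (adjusted p = 0.413), with -0.19 from its second probe set and 0.23 from another, dim one with a mean level of 4.35. Both genes overlapped between the genotypes.

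The mediators of TGF-beta signals had estimates near 0. Smad2 had a log2 difference of -0.04 ± 0.07 (SE; 95% interval -0.19 to 0.12), and Smad3 one of 0.03 ± 0.07 (-0.13 to 0.19). Smad4, the partner shared by both branches, had -0.15 ± 0.09 (adjusted p = 0.504, limma). Its other probe sets gave -0.06 ± 0.07 and -0.16 ± 0.05 (adjusted p = 0.740 and 0.311 among all probe sets, limma). For the inhibitory Smads, Smad6 had 0.00 ± 0.08 (95% interval -0.17 to 0.17) and Smad7 -0.08 ± 0.09 (-0.28 to 0.12). No member of this group passed the test.

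Smad1, Smad5, Ski and Smurf2, 4 of the 10, had an unadjusted p under 0.05, which 1559 genes or 12% of all tested genes also had. Marker means of other cells are given beside these estimates. The mean of 7 fibroblast markers was 12.00, 11.98 and 12.07 in the 3 wild-type groups and 11.87, 11.82 and 11.98 in the heterozygous ones, with overlapping ranges (11.73 to 12.24 and 11.76 to 12.04). Of the 7 muscle-rich glands 5 were wild-type. The mean of the muscle markers was 8.64 in wild-type and 5.78 in heterozygous glands after sham, and 7.35 and 5.15 at 4 weeks. At 1 week it was 6.29 in wild-type and 6.85 in heterozygous glands. Without the 7 muscle-rich glands the difference was -0.13 for Smurf2, -0.10 for Ski and -0.16 for Smad1. With endothelial and fibroblast marker means in the model it was -0.19, -0.11 and -0.16. The part of these cells in the difference was not tested beyond that. In bulk tissue, fewer cells of a type and less RNA per cell cannot be told apart.

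In the separate conditions no member was called between the genotypes after sham or at 1 week, where no gene of all tested was called (0%), or at 4 weeks, where 0.0154% were. After sham the estimate was below 0 for 9 of the 10 genes (50.6% of all genes), with a median of -0.166 against -0.002 for all genes. At 4 weeks it was again below 0 for 9 of 10 (51.1% of all genes), with a median of -0.173 against -0.004. At 1 week, with only 2 heterozygous glands, Smurf2 had -0.29 ± 0.12 (SE; unadjusted p = 0.0225, adjusted p = 0.590, limma). Smad6 was the member above 0 at 4 weeks, with 0.26 ± 0.13 and an adjusted p of 0.828. Smad5 at 4 weeks read 8.35, 8.18 and 8.32 in wild-type and 8.12, 8.16 and 7.93 in heterozygous glands, a difference of -0.22 ± 0.11 with an adjusted p of 0.828. The 4 week genotype groups did not overlap for Smad1, Smad5 and Smad6, 3 of the 10, as for 12.4% of all tested genes.

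The radiation comparison within each genotype asks whether 10 cGy changed these genes 1 or 4 weeks later. No member was called in wild-type glands at 1 week (0% of all genes called), in wild-type glands at 4 weeks (0%), in heterozygous glands at 1 week (0%) or in heterozygous glands at 4 weeks (0.0154%). Sham glands were taken at 1 week, so the 4 week comparisons also hold the difference in age.

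Smad3 in wild-type glands at 1 week had the smallest p of these. Its sham glands read 8.54, 8.89 and 8.76, and the irradiated glands 8.53, 8.42 and 8.39, each below the lowest sham gland, and 10.1% of all tested genes had no overlap between these 2 groups. The log2 difference was -0.29 ± 0.12 (SE; unadjusted p = 0.0373, adjusted p = 0.958, limma). In heterozygous glands the Smad3 levels were 8.42, 8.60 and 8.77 after sham and 8.60 and 8.84 at 1 week, a difference of 0.12 ± 0.14. The difference between the genotypes in this change was 0.41 ± 0.19 (unadjusted p = 0.0446, adjusted p = 1), so the 2 responses were not shown to differ. Macrophage markers were highest in the same wild-type 1 week group, at 10.52 ± 0.60 (SD, n = 3) against 9.96 ± 0.39 after sham. Over the 17 glands Smad3 correlated with their mean at r = -0.708 (adjusted permutation p = 0.0585 over 100 pairs of a gene and a marker list).

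Skil had its estimate on the same side as Smad3 at 1 week in wild-type glands, with 9.33, 9.34 and 9.68 after sham and 9.40, 8.93 and 9.15 after irradiation, a difference of -0.29 ± 0.17 (SE; adjusted p = 0.958, limma). The groups overlapped. At 4 weeks the differences from sham ran from -0.14 to 0.18 in wild-type and from -0.20 to 0.17 in heterozygous glands, and every 95% interval included 0.

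Between 1 and 4 weeks after irradiation, averaged over the genotypes, 9 of the 10 estimates were above 0, while 36.8% of all genes were below 0, with a median of 0.123 against 0.058 for all genes, and none was called (background 0.0695%). Smad4 had 0.26 ± 0.11 (SE; adjusted p = 0.289, limma) and Smad1 0.23 ± 0.11 (adjusted p = 0.302). Those 2 genes had an unadjusted p under 0.05, as did 15.7% of all tested genes. The genotype difference in the change was not called for any member at 1 week (0%) or at 4 weeks (0%).

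In the tumours the spread differed between members. The within-group SD was 0.229 for Smad4, 0.264 for Smad2 and 0.273 for Smad5, and 0.437 for Smad7, 0.476 for Smad3, 0.503 for Smad6 and 0.581 for Smad1, against a median of 0.398 over all tested genes. Smad4 stood at the 9.92 percentile of all tested genes and Smad1 at the 71.1 percentile. Ski, Skil and Smurf2 lay between, and 6 of the 10 genes were below the median. None of the 30 gaps between neighbouring host group means was larger than the within-group SD of the gene.

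**Figure D2:**
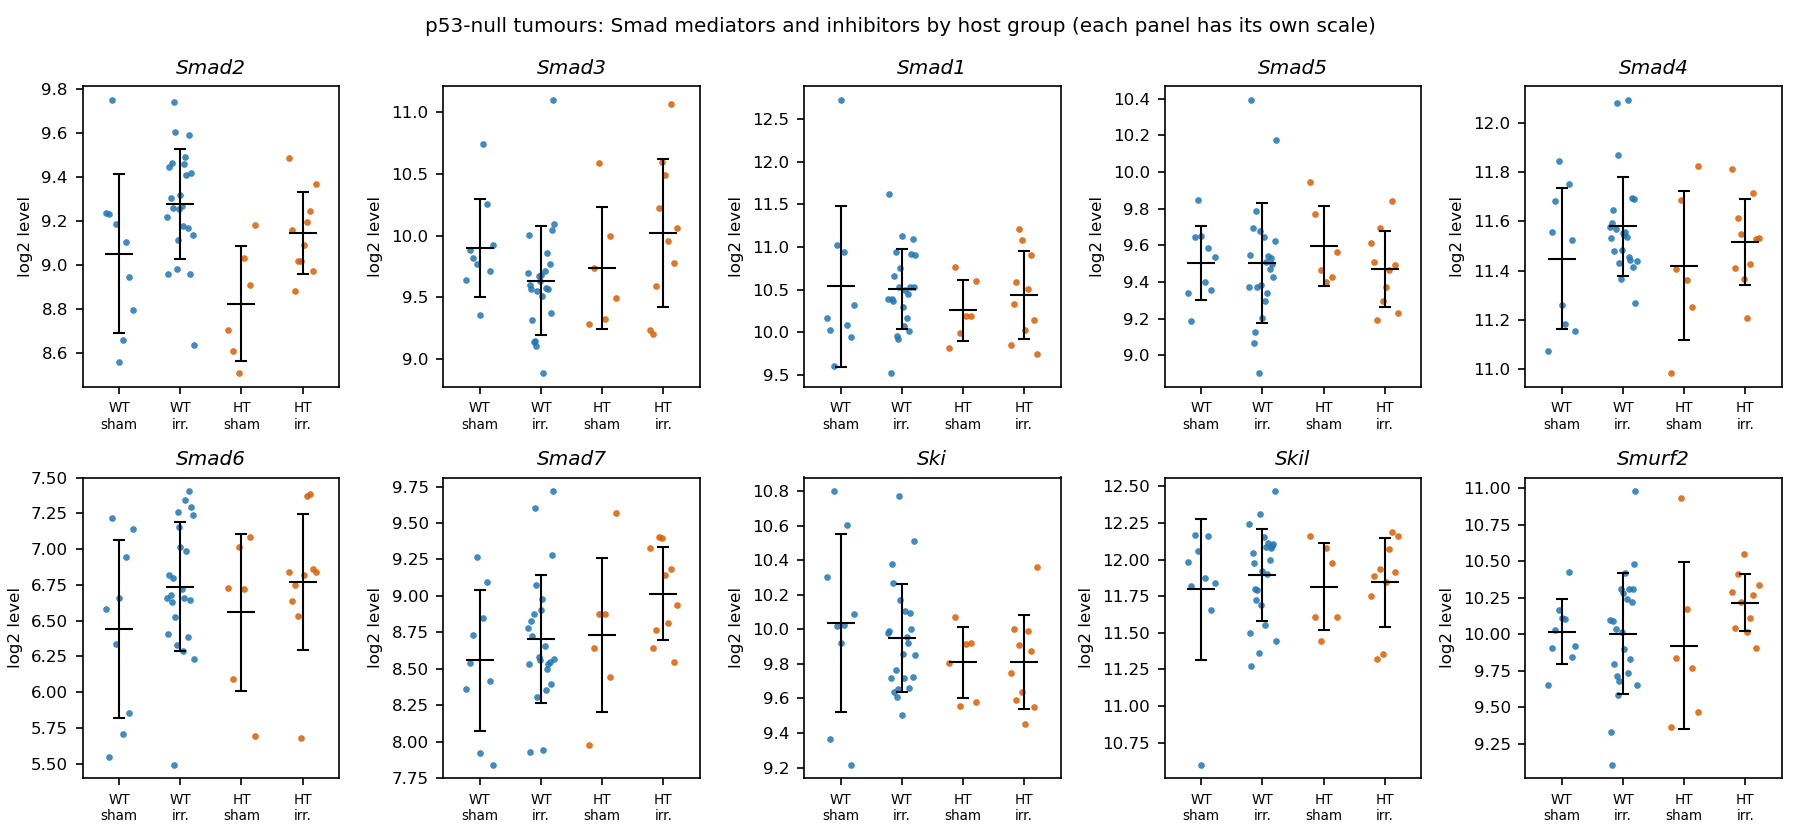
Log2 level (vertical axis, a scale of its own in each panel) of the 10 genes in the 48 tumours by host group (horizontal axis). Points are tumours, blue wild-type hosts and orange heterozygous hosts, and black marks are the group mean ± SD. The host groups overlap in every panel, and a tumour of a wild-type sham host stands at 12.73 in the Smad1 panel and at 10.60 in the Skil panel.

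No member was called for irradiation of wild-type hosts (0% of all genes), for irradiation of heterozygous hosts (0%), between sham hosts of the 2 genotypes (0%), between irradiated hosts (0.00782%), or for the difference between the genotypes in the irradiation change (0%). Smad2 was the member with an unadjusted p under 0.05 for irradiation in both host genotypes. Its lowest, median and highest levels were 8.56, 9.11 and 9.75 in 9 tumours of wild-type sham hosts and 8.64, 9.27 and 9.74 in 23 tumours of wild-type irradiated hosts. In heterozygous hosts they were 8.51, 8.81 and 9.18 in 6 sham tumours and 8.89, 9.13 and 9.49 in 10 irradiated ones. Thus 19 of 23 and 10 of 10 tumours of irradiated hosts lay above the median of their sham group, and the ranges overlapped in both.

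The log2 difference of Smad2 was 0.23 ± 0.11 (SE; 95% interval 0.01 to 0.44; adjusted p = 0.690, limma) in wild-type hosts and 0.32 ± 0.14 (0.04 to 0.60; adjusted p = 1) in heterozygous hosts. The 2 comparisons share no tumour. The unadjusted p was 0.0396 and 0.0272, while 6.94% of all tested genes passed that level in wild-type and 3.95% in heterozygous hosts. The second Smad2 probe set, which correlated with the used one at r = 0.171, gave 0.12 ± 0.14 in wild-type hosts. In heterozygous hosts 9 of the 10 members had an estimate above 0, where 49.3% of all genes were below 0, with a median of 0.198 against 0.004 over all genes.

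Smad3, the other mediator of TGF-beta signals, had its smallest p between irradiated hosts of the 2 genotypes. Its lowest, median and highest levels were 8.89, 9.60 and 11.10 in wild-type and 9.20, 10.01 and 11.07 in heterozygous irradiated hosts. The difference was 0.38 ± 0.18 (SE; unadjusted p = 0.0358, adjusted p = 0.864, limma), and 7 of 10 tumours of heterozygous hosts lay above the wild-type median. In sham hosts it was -0.16 ± 0.25, and the difference between these 2 differences was 0.55 ± 0.30 (unadjusted p = 0.0790, adjusted p = 1). Smad7, the feedback inhibitor of the receptors, had 7.93, 8.58 and 9.72 in wild-type and 8.55, 9.04 and 9.41 in heterozygous irradiated hosts. Its difference was 0.31 ± 0.16 (adjusted p = 0.902), with 9 of 10 tumours above the wild-type median.

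The remaining members differed little between host groups for their spread. Smad6 had 0.29 ± 0.20 for irradiation of wild-type hosts and 0.21 ± 0.26 for that of heterozygous hosts. Smurf2 had -0.01 ± 0.15 and 0.29 ± 0.19, and Smad1 -0.03 ± 0.22 and 0.18 ± 0.29, all SE. Smad4, Smad5, Ski and Skil stayed between -0.13 and 0.13 in both irradiation comparisons. For Smad5 the probe sets parted in wild-type hosts, with 0.00 ± 0.11 from the used one and 0.42 ± 0.18 (adjusted p = 0.562 among all probe sets) from the second.

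The members were then set against Tgfb1 itself, which varied from 6.47 to 11.33 over the tumours. The slope is the log2 change of a gene per log2 unit of Tgfb1 on the same array, in a model that also gives each host group its own mean. Smad1 was the 1 member of 10 that was called, while 28.6% of all tested genes were, so the members' share was not above the background. Its slope was 0.66 ± 0.11 (SE; 95% interval 0.44 to 0.87; adjusted p = 1.26e-05, limma). The other Smad1 probe sets gave 0.73 ± 0.12 and 0.72 ± 0.11 and correlated with the used one at r = 0.956 and 0.972.

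**Figure D3:**
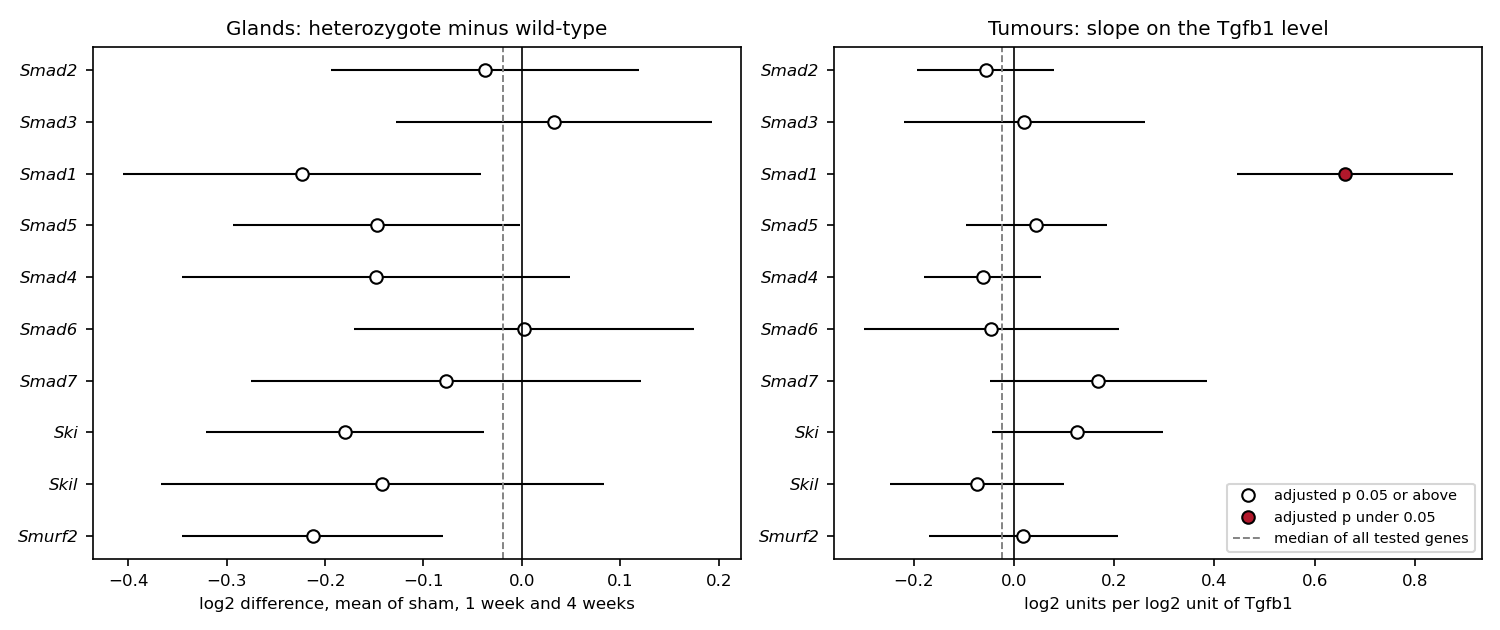
Estimates with 95% intervals for the 10 genes (vertical axis). Left, log2 difference of heterozygous minus wild-type glands averaged over the conditions; right, slope on Tgfb1 in the tumours, in log2 units per log2 unit of Tgfb1; the dashed line is the median of all tested genes and a filled red point has an adjusted p under 0.05. Most gland estimates lie left of 0 without passing, and Smad1, at 0.66, is the filled point on the right.

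Smad1 and Tgfb1 were also correlated across the tumours directly. Over the 48 tumours Pearson's r was 0.662 (permutation p = 1e-05, the smallest that these resamples can give) and Spearman's rho 0.601 (p = 2e-05), and r was 0.513 without the 2 tumours farthest from the median Tgfb1. Within the 23 tumours of wild-type irradiated hosts r was 0.505 (permutation p = 0.0154), and within the 10 of heterozygous irradiated hosts it was 0.698 (permutation p = 0.0186). Within the 9 of wild-type sham hosts r was 0.883 (exact permutation p = 0.0120), falling to 0.512 without the 2 farthest. Within the 6 of heterozygous sham hosts r was 0.683 (exact permutation p = 0.121) and rho 0.943 (exact permutation p = 0.0167). The coefficient was above 0 in all 4 groups, and in heterozygous sham hosts Pearson's r did not pass 0.05. In all, 10 members were set against Tgfb1 in each tissue, and the p-values of these correlations are unadjusted, while the slope's are adjusted over all genes.

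Tumour 5 of the wild-type sham hosts had the highest Tgfb1, 11.33, and the highest Smad1, 12.73, against a next highest Smad1 of 11.62 and a median of 10.39. Without it the Smad1 slope was 0.48 and was still called (adjusted p = 0.00458, limma), as it was in each of the 48 fits that left out 1 tumour, with slopes from 0.48 to 0.82. Without that tumour Smad7 was called too, with a slope of 0.40 (adjusted p = 0.0143), in a fit where 20.7% of all genes were called.

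Endothelial markers moved with both genes. All 8 markers, among them Pecam1 and Cdh5, were above the filter, and their mean was 7.92 ± 1.72 (SD; 6.54 to 12.2) in wild-type sham, 7.54 ± 0.71 (6.57 to 8.86) in wild-type irradiated, 7.87 ± 1.21 (6.24 to 9.61) in heterozygous sham and 8.16 ± 1.19 (7.04 to 10.65) in heterozygous irradiated hosts. This mean correlated with Tgfb1 at r = 0.672 (rho 0.508) and with Smad1 at r = 0.782 (rho 0.711), the latter with an adjusted permutation p of 0.00100 over 100 pairs of a member and a marker list. Without the 2 tumours highest in these markers, Smad1 and the markers still correlated at r = 0.644 over 46 tumours, the Smad1 slope on Tgfb1 was 0.45 (adjusted p = 0.0111, limma), and 19.2% of all genes were called. Smad1 also correlated with the fibroblast markers at r = 0.478 and with the macrophage markers at r = 0.443.

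With the endothelial mean in the model, the Smad1 slope on Tgfb1 was 0.08 ± 0.14 (SE; adjusted p = 0.863, limma), no member was called, and 20 of all genes, or 0.156%, were. With luminal, fibroblast and macrophage means instead, the slope was 0.53 ± 0.12 (adjusted p = 0.00384), with 9.63% of all genes called. Without the 11 tumours low in luminal markers it was 0.37 ± 0.15 (adjusted p = 0.163), with 3.71% of all genes called. Smad1 thus followed Tgfb1 and the endothelial markers together in these tumours, and the 2 relations cannot be told apart here.

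**Figure D4:**
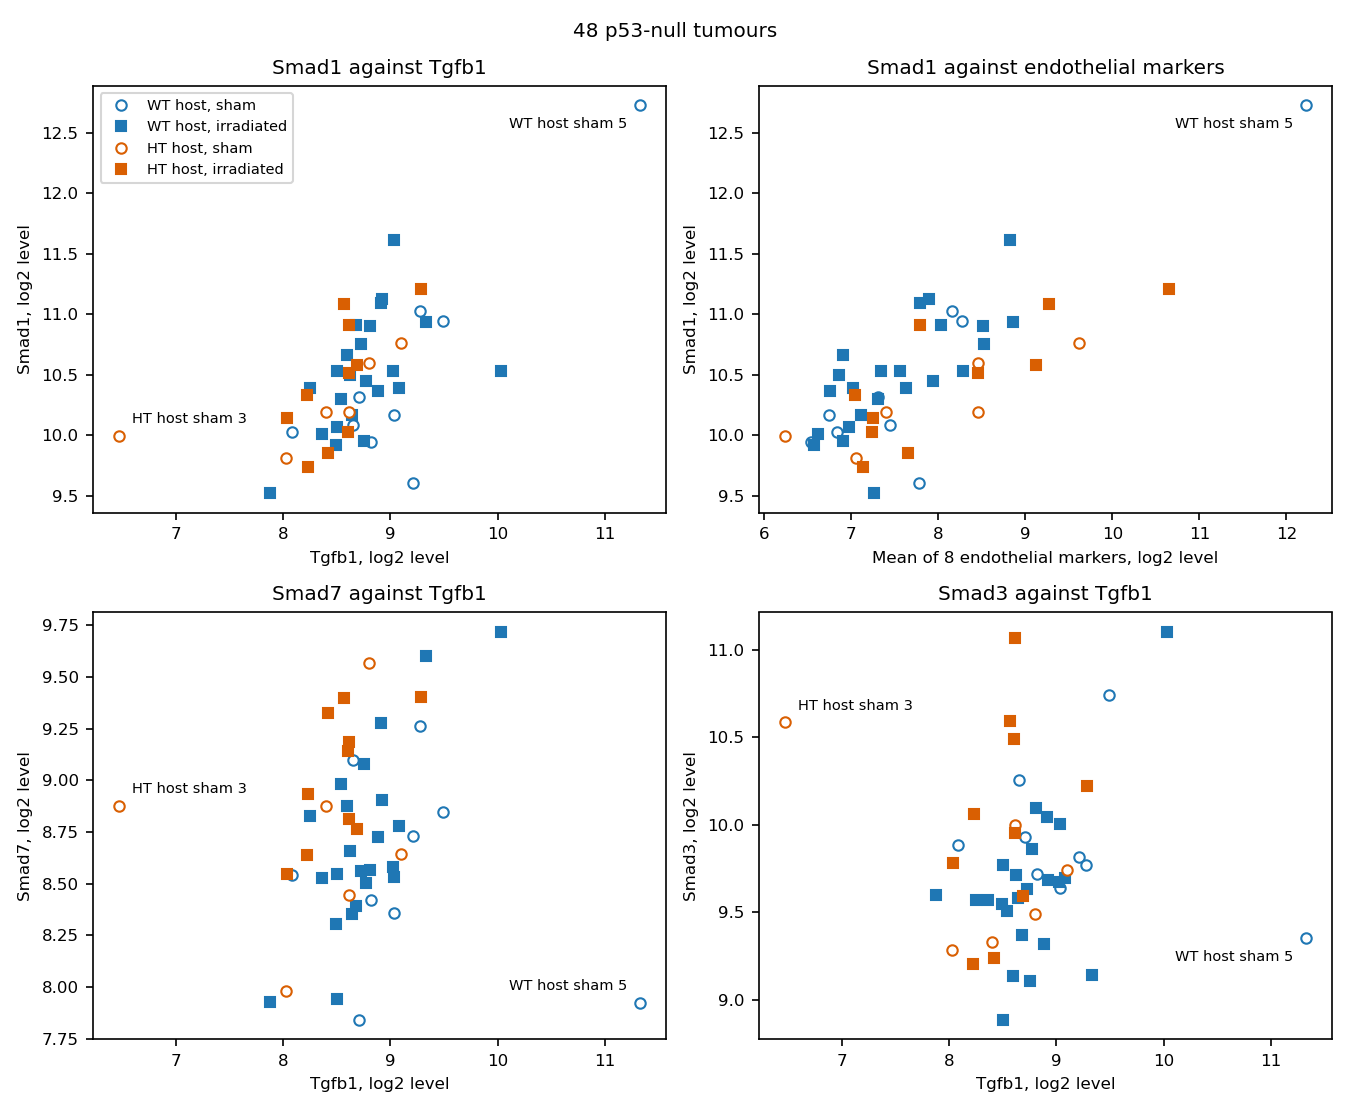
Log2 levels in the 48 tumours by host group (open circles sham, filled squares irradiated): Smad1 against Tgfb1, Smad1 against the mean of 8 endothelial markers, Smad7 against Tgfb1 and Smad3 against Tgfb1. Smad1 rises along both of its axes (r = 0.662 and 0.782), with tumour 5 of the wild-type sham hosts at the upper right, while that tumour lies far to the right and low in the Smad7 panel.

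Smad7 depended on the tumours included. Over all 48 tumours its slope was 0.17 ± 0.11 (SE; adjusted p = 0.244, limma) and r was 0.101 (permutation p = 0.496). Without the 2 tumours farthest in Tgfb1 the slope was 0.66 (adjusted p = 0.000984), in a fit that called 18.1% of all genes, and r was 0.466. Within the 23 tumours of wild-type irradiated hosts r was 0.723 (permutation p = 9e-05) and rho 0.542 (p = 0.00777). There r was 0.479 without the 2 tumours of that group farthest in Tgfb1. In heterozygous irradiated hosts r was 0.623 (permutation p = 0.0447), and 0.252 without the 2 farthest of that group. In the sham groups 1 tumour set the value. In wild-type sham hosts r was -0.297, and 0.349 without tumour 5, and in heterozygous sham hosts it was 0.0875, and 0.553 without tumour 3, over 8 and 5 tumours. Whether the host groups differ in this coefficient was not tested. The second Smad7 probe set gave a slope of 0.14 ± 0.12 and correlated with the used one at r = 0.952.

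Smad3 also depended on the tumours included. Its slope was 0.02 ± 0.12 (SE; adjusted p = 0.918, limma) over all tumours. It was 0.50 ± 0.16 (adjusted p = 0.0211) without the 2 farthest, tumour 5 of the wild-type sham and tumour 3 of the heterozygous sham hosts. Without tumour 5 alone it was 0.16 (adjusted p = 0.464, limma) and, unlike that of Smad7, was not called. Within wild-type irradiated hosts r was 0.543 (permutation p = 0.0175). It was 0.150 without the 2 tumours of that group farthest in Tgfb1, so that relation rested on those tumours. Tumour 22 of that group held the highest Smad7, 9.72, the highest Smad3, 11.10, and a Tgfb1 of 10.03. With only that tumour left out, the Smad3 slope was -0.11 and the Smad7 slope 0.09. The fit that gave 0.50 for Smad3 kept tumour 22.

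The other members had slopes near 0. Ski had r = 0.294 (permutation p = 0.0439) and rho 0.334 (p = 0.0199), and a slope of 0.13 ± 0.09 (SE; adjusted p = 0.272, limma). The slopes of Smad2, Smad4, Smad5, Smad6, Skil and Smurf2 ran from -0.07 to 0.04, and the 95% interval of Smad4 was -0.18 to 0.05. In the glands no gene at all was called for a slope on Tgfb1 (0%), and the members' slopes ran from -0.36 for Skil to 0.07 for Smad2. Relations with Tgfb1 in glands rest on a dim signal, 3.81 to 5.45 with the filter at 4.15. Smurf2 correlated with Tgfb1 over the 17 glands at r = 0.552 (permutation p = 0.0193) and rho 0.540 (p = 0.0274), but at 0.256 without the 2 farthest glands and at -0.376 once each group's mean was removed. The relation over all glands thus did not hold within groups.

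Some members followed other markers of the tumours. Smad6 and Skil correlated with the luminal epithelium markers at r = 0.527 (adjusted permutation p = 0.00800) and 0.504 (adjusted p = 0.0138). Smurf2 correlated with proliferation markers at r = -0.552 (rho -0.455, adjusted p = 0.00150), and at -0.388 without the 2 farthest tumours. In the glands no pair of a member and a marker list passed the adjusted threshold. The highest r there was that of Smad1 with the endothelial markers, 0.725 (rho 0.755, adjusted permutation p = 0.0585).

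The members' relations with one another differed between the tissues and are given as a description, since the genes of 1 array share its RNA and its scaling. The coefficients are of levels, so they also hold differences between groups, and the same figures over all pairs of genes are not given here. Over the 45 pairs the median r was 0.278 in glands, with 40 pairs above 0, and 0.131 in tumours, with 30 above 0. In the glands Smad1 correlated with Smad4 at 0.82, with Ski at 0.77 and with Smad5 at 0.67, and Ski with Smurf2 at 0.68. In the tumours the same pairs had -0.05, 0.00, 0.09 and 0.19. Smad2 and Smad4 correlated at 0.44 in glands and 0.57 in tumours, and the related repressors Ski and Skil at 0.43 and 0.47. Smad6 and Smad7, the pair of inhibitory Smads, had coefficients below 0 in both tissues, -0.31 and -0.13.

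**Figure D5:**
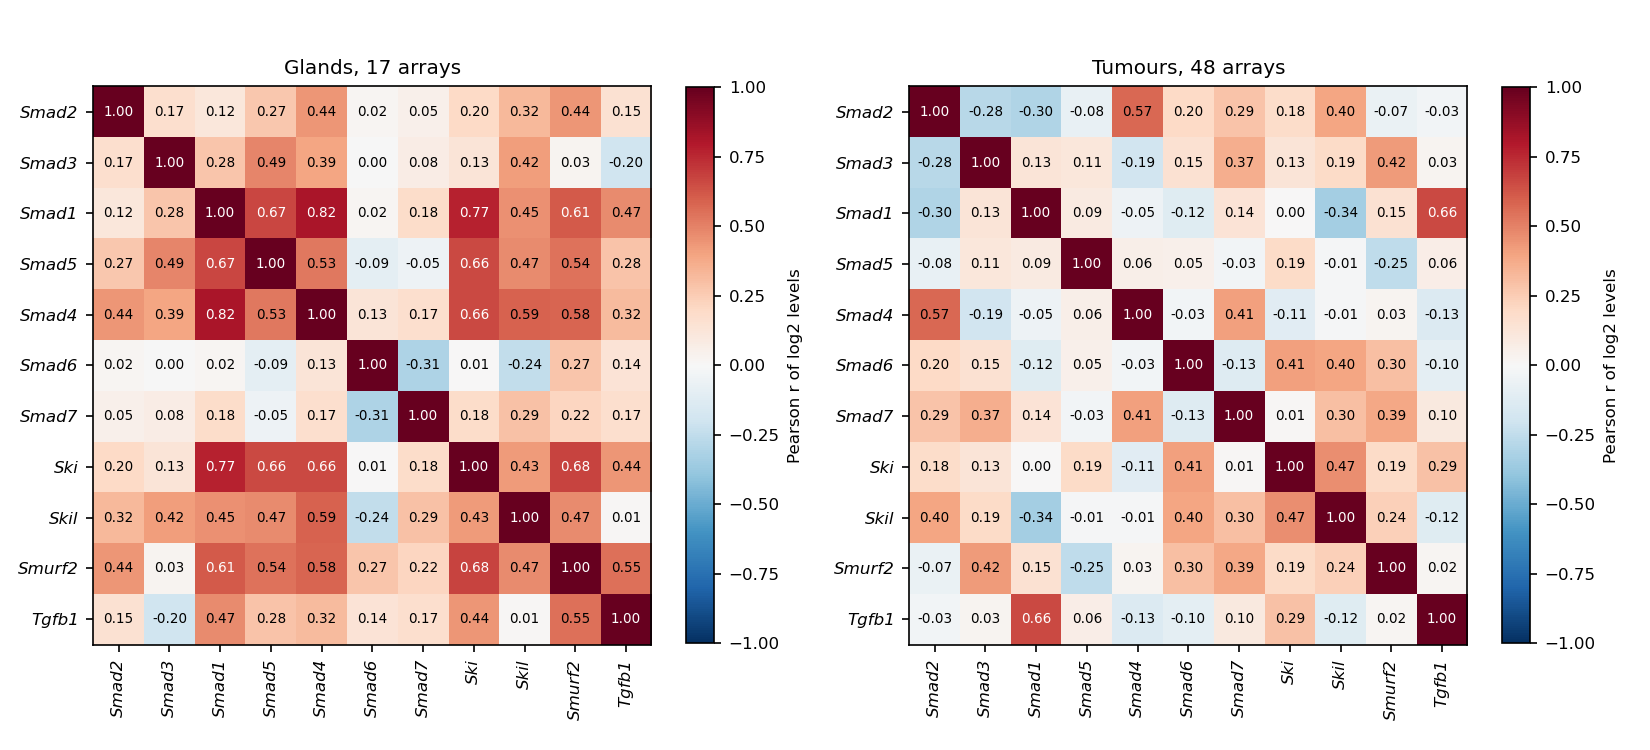
Pearson's r between each pair of the 10 genes and Tgfb1, in the 17 glands (left) and the 48 tumours (right), with colour from -1 to 1. The block of Smad1, Smad4, Smad5, Ski and Smurf2 that is warm in the glands is pale in the tumours, where Smad1 with Tgfb1 (0.66) and Smad2 with Smad4 (0.57) stand out.

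The genes whose deviations from the group means ran most like a member's were listed for 5 members, Smad1 having been added after its values were seen. In the tumours they were Gimap1 (r = 0.838), She (0.830) and Rasip1 (0.829) for Smad1. In levels, with the group means kept, these genes correlated with Smad1 at 0.824, 0.796 and 0.801. Without the 2 tumours highest in endothelial markers, the coefficients of levels were 0.701, 0.654 and 0.657. Smad7 ran with Blcap (0.753), Gzme (0.709) and Slc25a24 (0.698), and Skil with 2610307P16Rik (0.757), Gtf2ird1 (0.751) and Fam160a1 (0.736). Smad3 ran with Rad54l2 (0.674), Gm20199 (0.668) and Arih1 (0.658), and Smad6 with Tle1 (0.685), Rassf7 (0.670) and Ctnnbip1 (0.667). The coefficients of the deviations were lower for Smad3 and Smad6 than for Smad1. In the glands the nearest were Aplnr (0.917) for Smad1, Dhx30 (0.910) for Smad3, Smarcd3 (0.881) for Smad6, Vwa7 (0.857) for Smad7 and Tia1 (0.914) for Skil, over 17 arrays and 12944 genes.

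Other genes of the pathway give the setting of the members' slopes in the tumours. Of 12 genes known as TGF-beta targets, 6 were called with a positive slope on Tgfb1 and none with a negative one, with a median of 0.58 against -0.02 over all genes, of which 14.3% were called in that direction. With the endothelial mean in the model none of the 12 was called (median 0.35), nor was any gene of the other lists, and with luminal, fibroblast and macrophage means none of the 12 was called either. Without the 11 low-luminal tumours 1 of the 12 was called, and without the 2 tumours highest in endothelial markers 6 were. With the second Tgfb1 probe set none of the 12 was called, where 6.46% of all genes were. With the replicate number as a block 2 of the 12 were called, where 13.1% of all genes were. The values that follow are from the reported model, over all tumours and without these changes. Fn1, which encodes fibronectin, had 0.94 ± 0.19 (SE; adjusted p = 0.000341, limma), the collagen gene Col1a1 had 0.90 and the transcription factor Snai1 had 0.87. Of 7 ligand genes, 3 were called higher and 1 lower, led by Inhba, a subunit of activin, at 1.13 (adjusted p = 0.000276). Of 11 receptor genes, 4 were called higher and 1 lower. Eng and Acvrl1, a co-receptor and a receptor known from endothelial cells, had 0.81 (adjusted p = 3.29e-06) and 0.52, and the BMP receptor Bmpr1a -0.30. Of 6 BMP targets 2 were called higher, Msx1 with 0.68 and Id3 with 0.70. Of 15 other regulators, Wwp1 was called higher at 0.26 and Trim33 lower at -0.46, with a list median of 0.00. The members' own median slope was 0.02.

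In the glands no gene of these lists but Tgfb1 was called in the average genotype difference. The median difference was -0.17 over 11 TGF-beta targets, 10 of them below 0, -0.16 over 12 receptors, 11 of them below 0, and -0.15 over 15 other regulators, beside the members' -0.145. Over all tested genes the median was -0.019, and 55.3% were below 0. Whether these lists differ from all genes as sets was not tested. Col1a1 had -0.50 (adjusted p = 0.0843, limma), Tgfbr1, a TGF-beta receptor, -0.25 (adjusted p = 0.299) and the decoy receptor Bambi -0.30 (adjusted p = 0.367). The 8 BMP targets had a median of -0.05, and the 9 ligands one of 0.03, above that of all genes, with 5 of 9 ligands above 0.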

How the data were processed

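The 65 arrays were Affymetrix 3' arrays labelled from 80 ng (glands) or 100 ng (tumours) of total RNA. RMA is named, without a version, in the submitters' processing notes. The authors deposited gland values as a linear intensity per probe set and tumour values on the log2 scale; gland values were put on log2 here. Array medians then spanned 4.86 to 4.93 in glands and 5.84 to 5.96 in tumours. Of 45101 probe sets, 34958 name 1 gene, 932 several and 9211 none in the platform annotation; the several and none were left out, and 99.4% of gene identifiers matched RefSeq.

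Each gene took its brightest probe set on average in the tissue, and genes under the 40th percentile of mean level were dropped (4.15 in glands, 5.14 in tumours). limma 3.58.1 in R 4.3.3 fitted 1 mean per group in each tissue (lmFit, eBayes with trend; 11 and 44 residual degrees of freedom), with Benjamini-Hochberg adjustment over all genes at 0.05. Correlations used two-sided permutation tests with 100000 resamples, exact below 10 samples. The fits were tested on simulated data. The number of arrays, 2 or 3 in each gland group, limits the precision. Dim and unfiltered genes, other probe set rules, quantile normalization, blocks, marker covariates and left-out arrays were tried as alternatives.

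The 10 members, the pathway and marker lists and the tests were chosen with earlier results of these data known. Named genes were the members and Tgfb1, of each pathway list at most 3 genes past the threshold (or 2 with the smallest p where none passed), and the 3 genes of most similar pattern for Smad3, Smad6, Smad7 and Skil; Smad1 was added after its values were seen.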

Additional observations from a re-analysis of the deposited data

Results flagged for a closer look

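Among the 30 sets of a member and a host group of 6 to 10 tumours, 3 held a tumour whose gap to the next was large for the range of its group, where chance gives about 1 in 20. Smad6 in tumour 13 of the heterozygous irradiated hosts was 5.68, with the next lowest of the 10 at 6.53. Smad1 in tumour 5 of the wild-type sham hosts was 12.73, with the next highest of the 9 at 11.02. Skil in the same tumour was 10.60, with the next lowest at 11.66. That tumour also had the highest Tgfb1, 11.33, the highest endothelial marker mean, 12.2, and a luminal marker mean of 9.94. Its part in the values of Smad1 and Smad7 is given with the slopes above.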

How the results depend on the processing

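Beside the reported setting, 28 gland and 62 tumour settings were tried, fits without 1 array included. Some were fitted for the slope on Tgfb1 alone. In both tissues these were the fits without group terms and with the second Tgfb1 probe set. In tumours they were also the endothelial covariate and the fits without the high-endothelium tumours or the 2 farthest in Tgfb1. Under all the other settings no member was called in any comparison of gland or host groups. The count of members called for the tumour slope on Tgfb1, 1 as reported, was 1 to 2 when 1 tumour was left out (2 without tumour 5 of the wild-type sham hosts). It was 0 without the low-luminal tumours and 0 with the endothelial covariate, 2 without the 2 high-endothelium tumours, and 3 without the 2 tumours farthest in Tgfb1; the last 3 settings, the endothelial and fibroblast covariates in glands and Smad7 in sham hosts without 1 tumour, were chosen after seeing the data. The Smad3 slope, 0.02, was -0.0025 with the mean of probe sets, -0.13 with the replicate block, -0.082 without low-luminal tumours and -0.067 with the endothelial covariate, and -0.11 to 0.18 with 1 tumour left out. With the replicate number as a block the Smad1 slope was 0.56 (adjusted p = 0.0156, limma). Once each group's mean was removed, same-numbered arrays of different groups correlated over 0.1 in 19 of 40 gland pairs and 12 of 32 tumour pairs. That share was not counted for arrays of unlike number, so these counts cannot decide whether arrays were paired. The count of all genes called for the tumour slope, 3652 of 12785 (28.6%), was 5857 of 22942 single probe sets (25.5%), 1679 with the block, 1231 with luminal, fibroblast and macrophage covariates, 474 without low-luminal tumours, 20 with the endothelial covariate, 2308 without the 2 farthest and 826 with the second Tgfb1 probe set. In glands the 6 genes called for the genotype average became 12 without a filter, 1 without muscle-rich glands, 0 without lymph-node-rich glands and 0 with endothelial and fibroblast covariates, and 3 to 15 with 1 gland left out (15 without heterozygous sham gland 2); the call of Tgfb1 is lost in several of these, as given above. The 9 called for 4 weeks against 1 week became 0 to 3 under 7 of the settings, and 0 to 64 with 1 gland left out (64 without heterozygous 1 week gland 1). Groups of 2 or 3 gland arrays limit what those comparisons can show.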
